A study of Saccharomyces cerevisiae with 18 samples.

Results

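Disome footprints were set against monosome footprints within wild-type yeast, gene by gene, to ask which transcripts carried more or fewer stacked ribosome pairs than their single-ribosome footprints alone would give. The members are the genes with counts in both the monosome and the disome table, 5693 of the 6159 genes in either. Of these, 5250 passed the filter on low counts and were tested. The wild type was BY4741 (MATa his3Δ1 leu2Δ0 ura3Δ0 met15Δ0), an auxotrophic laboratory strain, grown in YPD at 30 °C, with 3 monosome and 2 disome libraries. The MATa strains hel2 (hel2Δ::LEU2), ncs2elp6 (ncs2Δ::HIS3MX with elp6Δ::URA3) and ncs2elp6hel2 (all 3 deletions) lack a ubiquitin ligase of collided ribosomes, enzymes of tRNA wobble uridine modification, or both. They share his3Δ1, leu2Δ0 and ura3Δ0 with wild type, their labels do not list met15Δ0, and they are used only for a comparison near the end, of 18 libraries in all. The study calls its libraries biological replicates and collected both fractions from a gradient, but no source used here ties a given monosome library to a disome library of the same lysate.

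A translating ribosome shields a short stretch of mRNA from nuclease, and the shielded fragments, sorted by gene, report where ribosomes were. When a ribosome slows or stops, the one behind it can run into it, and the pair then shields a longer fragment, the disome footprint. Collided ribosomes are the substrate that the ubiquitin ligase Hel2 and the helicase Slh1 act on, but stacked pairs also arise in ordinary translation, for example where ribosomes wait at a stop codon or where a nascent peptide slows its own ribosome.

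The wild-type monosome libraries held between 11702547 and 13710907 counts and the disome libraries 1693501 and 1701590. Levels are CPM, counts scaled to a library total of 1000000, so that each value is a share of its own library. The number of ribosomes in pairs per cell was not measured, and a value of 0 on the log2 scale means an equal share of both library types. At genes of at least 20 CPM (mean of the 2 group means, 3263 genes), Pearson's r of log2 levels was at least 0.992 between monosome libraries, 0.975 between the disome libraries and 0.878 to 0.890 across types, as a description across genes. MET17, the gene removed by met15Δ0, had between 0 and 24 counts in the 5 libraries. The library type cannot be told apart from the gel fraction, the fragment length and its chance of mapping to 1 place only. The tables give counts per gene, so where on a gene the pairs lay is not known.

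The disome libraries were not a scaled copy of the monosome libraries. By edgeR's quasi-likelihood test with Benjamini-Hochberg adjustment, 2732 of 5250 genes (52%) differed at an adjusted p under 0.05. Of these, 951 genes (18.1% of those tested) were higher in disomes and 1781 (33.9%) were lower, with 405 and 973 of them beyond 2-fold. The median difference over all tested genes, disome minus monosome, was -0.26 on the log2 scale, and the 5th and 95th percentiles were -1.92 and 1.29. The balance between directions depended on the scaling. With TMM scaling, which centres the bulk of the genes, 1294 were higher and 1377 lower and the median was -0.05. With the size factors of DESeq2, 1382 were higher and 1224 lower and the median was -0.01. The share of called genes that were higher was thus 34.8%, 48.4% and 53.0%. All later values are scaled to library totals unless another scaling is named, and -0.26 is the level of the median gene beside them.

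**Figure D1:**
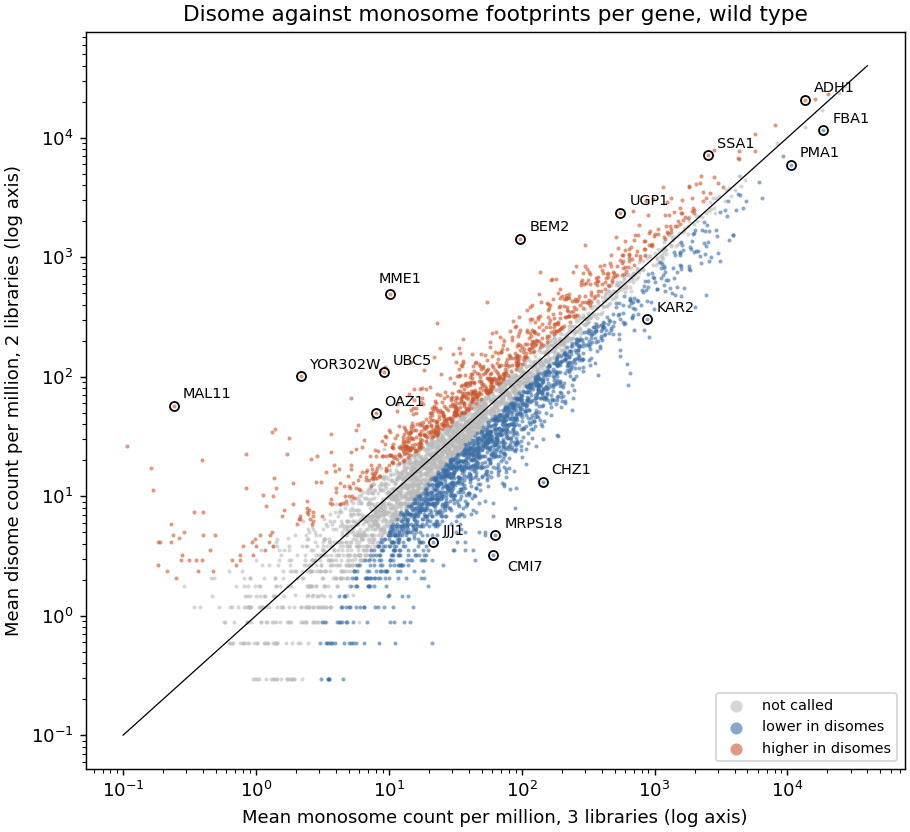
Mean disome level (2 libraries) against mean monosome level (3 libraries) of each tested wild-type gene with a count in both types, in CPM on log axes; the line marks equal levels and colours mark the 951 higher, 1781 lower and the other genes. Circles mark 16 named genes; MAL11, MME1, YOR302W and BEM2 stand far above the line, and CMI7, MRPS18 and CHZ1 far below it.

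The 12 genes with the largest excess in disomes, among genes of at least 20 CPM whose library types did not overlap, spanned transporters, mitochondrial proteins and regulators. Of the 3263 genes at that level, 755 were called higher and 1209 lower without overlap. BEM2, which acts in bud emergence, stood out by its level. Its 3 monosome libraries gave 92.9, 90.2 and 109.6 CPM and its disome libraries 1253 and 1603 CPM. Each disome library held more than 10 times the level of any monosome library, and the log2 difference was 3.87 (SE 0.14, adjusted p = 4.01e-08, edgeR).

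A pair of mitochondrial carrier proteins followed. MME1, which exports magnesium from mitochondria, had 10.3, 10.4 and 9.77 CPM in monosomes and 281 and 699 CPM in disomes. The 3 monosome values lay close together while the disome values differed from each other by more than 2-fold, and the log2 difference was 5.59 (SE 0.40, adjusted p = 7.43e-05, edgeR). Without disome replicate 2 it was 4.79. MTM1, a carrier needed to activate the mitochondrial superoxide dismutase, had 8.93, 8.8 and 8.02 CPM against 91.1 and 130.5 CPM, a log2 difference of 3.69 (SE 0.18, adjusted p = 2.91e-07). YAH1, the mitochondrial ferredoxin of iron-sulfur cluster assembly, had 60.1, 55.5 and 49.3 CPM against 522 and 319 CPM, a log2 difference of 2.94 (SE 0.18).

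YOR302W is not a conventional gene: it is the upstream reading frame in the leader of the CPA1 mRNA, and its peptide is the arginine attenuator, known to halt the ribosome that made it when arginine is plentiful. It is 78 nt long. Monosome levels were 2.23, 1.71 and 2.63 CPM and disome levels 126 and 77.4 CPM. The groups were far apart, with a log2 difference of 5.52 (SE 0.25, adjusted p = 1.65e-07, edgeR). CPA1 itself, the small subunit of carbamoyl phosphate synthetase that lies downstream, had 23.4, 25 and 28.5 CPM in monosomes and 41.1 and 53.1 CPM in disomes. Its log2 difference of 0.88 (SE 0.18, adjusted p = 0.0021, edgeR) was positive and without overlap. Both disome libraries lay above all monosome libraries in 23.9% of all tested genes. The reading frames were counted with 21 nt added on both sides, so that part of the reads of a frame this short may start or end outside it.

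MAL11, an alpha-glucoside transporter, ranked first, but on few monosome reads: 2, 4 and 3 counts in the monosome libraries against 60 and 134 in the disome libraries. The ratio of the pooled shares was 241, with an exact 95% interval for counting error of 124 to 535, and the fitted log2 difference of 7.82 leans on those 9 monosome reads. Without disome replicate 2 it was 7.14. TPO4, a polyamine exporter of the plasma membrane, had 21.4, 18.6 and 29.1 CPM in monosomes and 216 and 347 CPM in disomes (log2 difference 3.61, SE 0.22). PHM8, a phosphatase induced by low phosphate, had 9.57, 7.01 and 11.5 CPM against 132 and 109 CPM (3.68, SE 0.20). CUP2, the copper-sensing transcription factor, had 14.0, 15.1 and 15 CPM against 77.6 and 188 CPM (3.17, SE 0.30), which became 2.40 without disome replicate 2. HSP42, a small heat shock protein, had 24.6, 18.6 and 29 CPM against 145 and 201 CPM (2.84, SE 0.20). In each of these genes the lowest disome value was above the highest monosome value, which the rule for naming them required.

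The remaining members of this group were YJL163C, whose function is not known, and UBC5. YJL163C had between 4.53 and 5.58 CPM in monosomes and 52.3 and 80.3 CPM in disomes, a log2 difference of 3.67 (SE 0.22). UBC5, a ubiquitin-conjugating enzyme, had 9.33, 8.29 and 9.77 CPM in monosomes and 109 CPM in both disome libraries (3.58, SE 0.16). UBC4, its near-identical copy, had 247, 264 and 341 CPM in monosomes against 658 and 630.1 CPM in disomes (log2 difference 1.18, SE 0.14). Only uniquely mapped reads were counted, and a long read is unique more often than a short one in such a pair, so the values of both genes are uncertain. What part mapping has in them was not tested.

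**Figure D2:**
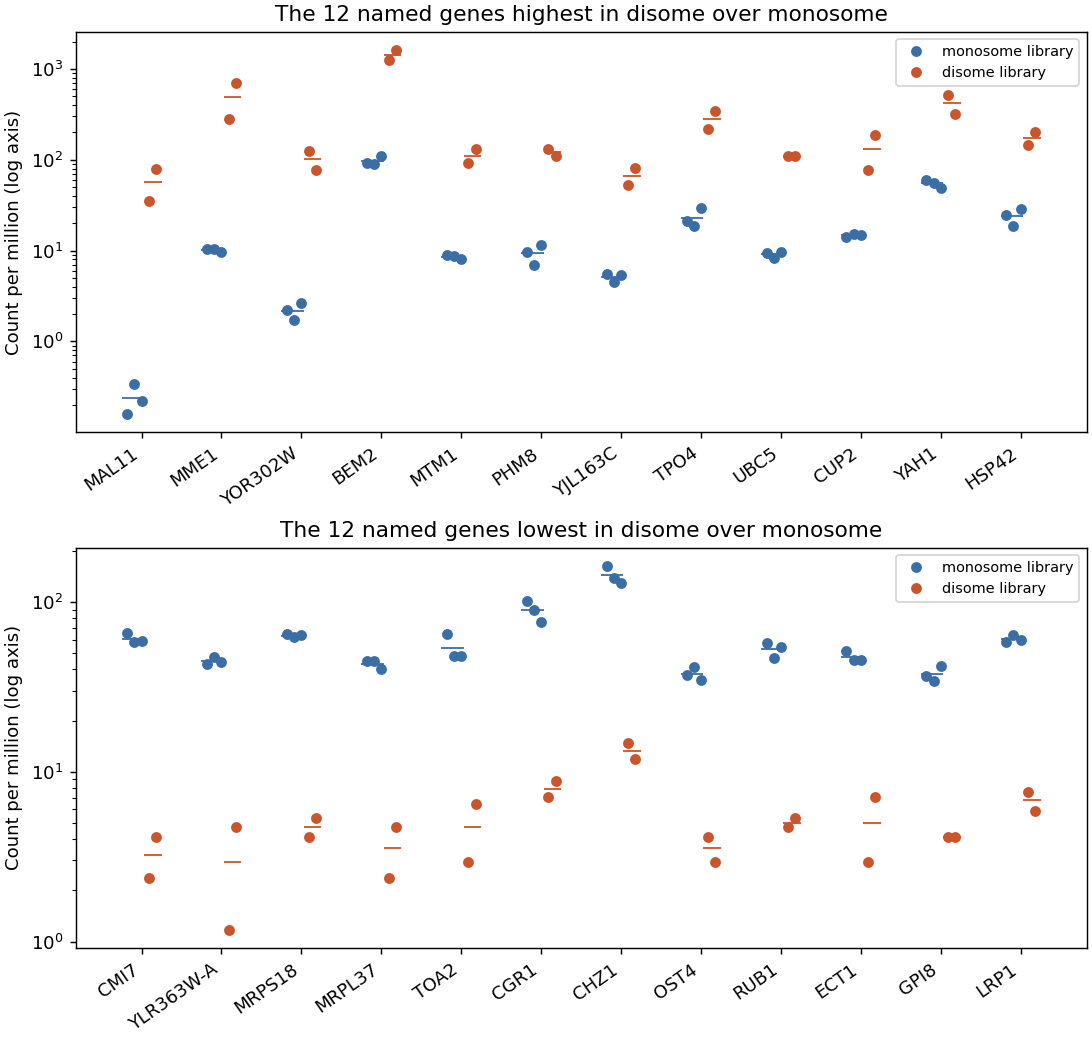
Level of each wild-type library in CPM (log axis) for the 12 genes highest and the 12 genes lowest in disomes over monosomes; points are libraries and short lines are group means. In all 24 genes the 2 disome libraries lie beyond the 3 monosome libraries, which the rule for naming them required.

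The 12 genes with the largest deficit in disomes were short. Their median length was 366 nt (introns included), against 1104 nt for the 12 with the largest excess and 1293 nt for all genes of at least 20 CPM. CMI7 (210 nt) had 65.2, 58.0 and 58.7 CPM in monosomes and 2.35 and 4.13 CPM in disomes, a log2 difference of -4.22 (SE 0.28, adjusted p = 1.30e-06, edgeR). The disome values rest on 4 and 7 counts. YLR363W-A (258 nt) had 43.2, 47.3 and 44.3 CPM against 1.18 and 4.72 CPM (-3.92, SE 0.34), from 2 and 8 disome counts, with -5.24 without disome replicate 2 and -3.25 without disome replicate 1. OST4, the smallest subunit of the oligosaccharyltransferase (111 nt), had 37.2, 41.1 and 34.6 CPM against 4.11 and 2.95 CPM (-3.41, SE 0.29).

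Mitochondrial ribosomal proteins held 2 places. MRPS18 of the small subunit had 64.8, 61.8 and 63.6 CPM in monosomes and 4.11 and 5.31 CPM in disomes (-3.75, SE 0.24, adjusted p = 1.05e-06). MRPL37 of the large subunit had 44.7, 44.9 and 40.2 CPM against 2.35 and 4.72 CPM (-3.61, SE 0.30), and -4.19 without disome replicate 2. Nuclear proteins made up a further part. CHZ1, a chaperone of the histone variant H2A.Z, had the highest monosome level of the 12, with 162, 139 and 129.97 CPM against 14.7 and 11.8 CPM (-3.44, SE 0.20, adjusted p = 7.11e-07). CGR1, which acts in the processing of ribosomal RNA, had 101, 89.9 and 76.4 CPM against 7.05 and 8.86 CPM (-3.48, SE 0.25). The TFIIA subunit TOA2 fell by 3.50 on the log2 scale and by 4.18 without disome replicate 2, and the nuclear exosome cofactor LRP1 fell by 3.15.

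Enzymes and modifiers completed the group. RUB1, a ubiquitin-like protein, had 57.6, 46.5 and 53.9 CPM against 4.70 and 5.31 CPM (-3.39, SE 0.27). GPI8, a subunit of the GPI transamidase and at 1236 nt the longest of the 12, had 36.7, 34.2 and 42 CPM against 4.11 and 4.13 CPM (-3.19, SE 0.29). ECT1, of phosphatidylethanolamine synthesis, had 51.3, 45.5 and 45.4 CPM against 2.94 and 7.09 CPM (-3.24, SE 0.29), and -4.01 without disome replicate 2. All 12 genes had between 2 and 25 counts in each disome library.

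Length and level were set against the difference over the 3263 genes of at least 20 CPM, as a description, in 5 bins of equal size for each feature. In the bin of the shortest genes (78 to 696 nt) the median log2 difference was -0.35, with 45.8% of the genes called lower and 19.3% higher. In the bin of the longest genes (2292 to 14733 nt) it was -0.09, with 30.3% lower and 24% higher. Spearman's rho with length was 0.11. The density of monosome footprints, in CPM per kilobase, went the other way with rho -0.15. The sparsest bin had a median of 0.09, with 30.0% called higher, and the fourth bin -0.37, with 49.1% called lower. The densest bin stood between them at -0.13. Short genes were also the densest ones (rho -0.57 between both features). Length divides the density and genes were kept by level, so this rho is partly built in. Within each bin the spread was wider than the shift between bins. Genes entered by the mean of both group means, so a gene with sparse monosome footprints entered only with a high disome level, and the monosome counts are part of both the density and the difference. Both push the sparsest bin up and rho down, and no trend with density is read from them.

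**Figure D3:**
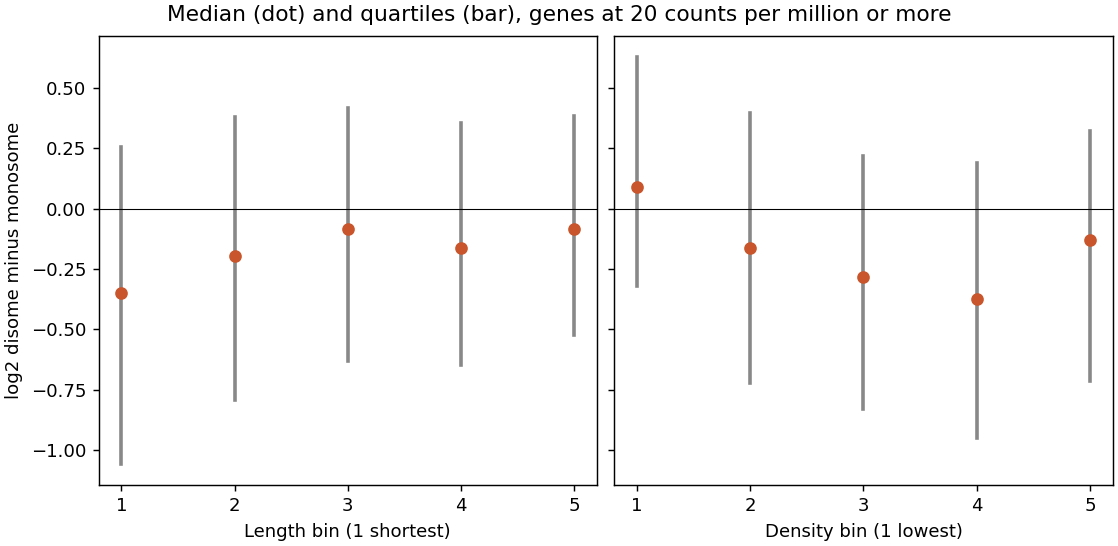
Log2 difference, disome minus monosome, by bin of gene length (left) and of monosome density (right), 5 bins each, over 3263 wild-type genes; dots are medians and bars run from the 25th to the 75th percentile. The medians run from -0.35 to -0.08 over length and from 0.09 to -0.37 over density, where the filter on level raises the sparsest bin, and the bars overlap throughout.

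The 5 genes with the highest disome levels all belong to glycolysis and fermentation and differed by less than 2-fold between library types. PDC1, the main pyruvate decarboxylase, ranked first in disomes with 26624 and 27270.1 CPM against 26865, 27143 and 26944 CPM in monosomes, and its log2 difference was -0.00 (SE 0.07, adjusted p = 0.983, edgeR). The enolase ENO2 had 21107 and 25919.7 CPM in disomes against 24819, 24890.3 and 23208 CPM (-0.05, SE 0.09). TDH3, a glyceraldehyde-3-phosphate dehydrogenase, was at 0.21 (SE 0.07, adjusted p = 0.0304), and this call was lost without monosome replicate 1, monosome replicate 2 or disome replicate 2. The pyruvate kinase CDC19 (0.39, SE 0.08) and the alcohol dehydrogenase ADH1 (0.61, SE 0.09) were higher. ADH1 had 18896 and 22756 CPM in disomes against 13774, 13287 and 13894 CPM. FBA1, the aldolase, was lower, with 10962 and 12088 CPM against 18448, 18503 and 18994 CPM (-0.69, SE 0.08, adjusted p = 2.80e-05). Over the 19 genes of glycolysis and fermentation, 9 were higher and 5 lower, beside 18.1% and 33.9% of all genes. Their median was 0.10, and with TMM scaling 11 were higher and 3 lower. The 3 highest were the glucokinase GLK1 (1.95, SE 0.17), the dehydrogenase TDH1 (1.72) and the hexokinase HXK1 (1.72), minor isoforms that are less used during growth on glucose. The lowest member, PDC5, a pyruvate decarboxylase other than the main PDC1, went the other way at -2.09. GLK1 had 172, 129.9 and 207 CPM in monosomes against 599 and 707 CPM in disomes.

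The list with the highest median was that of the genes of reserve carbohydrate and stress, a list drawn up after the values had been seen and thus no independent evidence. Of its 23 tested members, 20 were higher and 1 lower, with a median of 1.51 against -0.26 over all genes, and in 22 both disome libraries lay above all monosome libraries, as they did in 23.9% of all tested genes. UGP1, which makes the UDP-glucose for trehalose, glycogen and the cell wall, had 545, 509 and 608 CPM in monosomes and 2544 and 2166 CPM in disomes (2.09, SE 0.11, adjusted p = 3.79e-07, edgeR). TPS2 of trehalose synthesis had 85.0, 72.7 and 102 CPM against 322 and 265 CPM (1.76, SE 0.15), and PGM2, the major phosphoglucomutase, had 28.5, 19.2 and 44.1 CPM against 166 and 145 CPM (2.34, SE 0.29). CTT1, the cytosolic catalase, was the highest at 3.33 (SE 0.50), from 8 to 23 monosome counts and 14 and 34 disome counts, and at 2.56 without disome replicate 2. The exception was DDR48, named for its response to DNA damage, with 98.3, 98.1 and 102 CPM against 22.3 and 30.1 CPM (-1.92, SE 0.17). The summed share of the list was 0.288%, 0.240% and 0.303% of the monosome libraries and 0.682% and 0.667% of the disome libraries.

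The same genes varied among the monosome libraries. Monosome replicate 2 gave the lowest of the 3 monosome values in 22 of the 24 members and replicate 3 the highest in 18. Leaving out 1 library at a time kept between 16 and 21 members called higher, and 15 were called higher under each omission. Among the 6 tested hexose transporters of HXT1 to HXT7, singled out after their values were seen, 3 were higher, 2 were lower and 1 was not called. HXT5 had 25, 14 and 13 counts in monosomes and 51 and 72 in disomes (log2 difference 4.71, SE 0.33). The difference of HXT7 was 2.20 (SE 0.55, adjusted p = 0.00778), and that gene has a near-identical neighbour, HXT6. SUL1, a sulfate permease, reached 6.01 on 6 monosome and 38 disome reads, a ratio of 70.8 with a counting interval of 29.7 to 205. It was 6.91 without monosome replicate 2, 5.40 without monosome replicate 3 and 5.11 without disome replicate 1. The part of differences between cultures in these values was not tested.

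The cytosolic chaperones, which fold new and damaged proteins, were called higher more often than lower. Of 23 genes, 11 were higher and 4 lower, beside 18.1% and 33.9% of all genes. Their median was 0.37, and with TMM scaling 14 were higher and 2 lower. They share HSP26, HSP42 and HSP104 with the stress list. SSA1, of the Hsp70 family, had 2626, 2379 and 2580.1 CPM in monosomes and 6122 and 8097 CPM in disomes (1.49, SE 0.11, adjusted p = 2.89e-06), and HSC82, of the Hsp90 family, was at 0.65 (SE 0.08). SSE1, an exchange factor of Hsp70, was lower with 3444, 3430.3 and 3356 CPM against 2500.0 and 2433 CPM (-0.47, SE 0.08). SSA1 has near-identical relatives, and its counts are uncertain for that reason. No subunit of the CCT chaperonin, the ring that folds actin and tubulin, was higher and 5 of 8 were lower (median -0.40), with CCT7 the lowest at -1.05 (SE 0.12). Without disome replicate 1, 1 subunit was higher, and with TMM scaling 1 was higher and 3 were lower.

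Cytosolic ribosomal proteins took 25.7%, 26.1% and 24.7% of the monosome libraries and 21.5% and 20.3% of the disome libraries. Of 135 genes, 22 were higher and 77 lower, beside 18.1% and 33.9% of all genes, with a median of -0.41. With TMM scaling 35 were higher and 64 lower, and without monosome replicate 2 the count of higher genes was 14. The members did not move together. RPL10, a large-subunit protein near the peptidyl transferase centre, had 12448 and 8855 CPM in disomes against 5713, 5829.8 and 5656 CPM (0.89, SE 0.12, adjusted p = 9.75e-05), and RPL28 (0.85, SE 0.09) and RPS2 (0.66, SE 0.08) were higher too. RPL3, the most abundant member, had a difference of 0.12 (SE 0.08, adjusted p = 0.242), and was called higher with TMM scaling (0.32, adjusted p = 0.0169) and with DESeq2 (0.36, adjusted p = 0.0019). The extremes were RPS8A at 1.82 (SE 0.11) and RPS26A at -2.40 (SE 0.13). RPS26A had 1772, 2078 and 2167 CPM in monosomes and 339 and 423 CPM in disomes. Both belong to the 114 genes that come as A and B copies, where 17 were higher and 68 lower (median -0.47). Among the 21 others, 5 were higher and 9 lower (median -0.20), close to the -0.26 of all genes, and 9 and 8 with TMM scaling. Reads shared by 2 copies were not counted, and the share of positions lost differs with read length, so the values of the paired genes are uncertain.

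Mitochondrial ribosomal proteins were lower in 29 of 54 genes and higher in 9 (median -0.79), beside 33.9% and 18.1% of all genes. The share of higher members was thus near that of all genes. Of the 4 most abundant members, MRPL16 (1.47, SE 0.15), MRPL40 (1.28, SE 0.13) and MRPL28 (0.64, SE 0.14) were higher and MRPS12 was lower (-0.97, SE 0.17). MRPL40 had 134 and 113 CPM in disomes against 50.1, 49.2 and 53.0 CPM. Ribosome biogenesis factors were lower in 30 of 48 and higher in 3 (median -0.57). Among them RRP5, needed for both ribosomal subunits, was at -0.79 (SE 0.11), and the nucleolar protein NSR1 was higher, with 1461 and 1684 CPM against 966, 1049 and 996 CPM (0.65, SE 0.10). Without disome replicate 2 the higher factors numbered 7, and with TMM scaling 5. RNA polymerase subunits were lower in 18 of 31 and higher in 3 (median -0.69), the latter 6 without disome replicate 2 and 5 with TMM scaling. The largest subunit of RNA polymerase II, RPO21, was higher (0.62, SE 0.11) and RPA135 of polymerase I was lower (-0.89, SE 0.11).

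Genes of early secretion and of the vacuolar ATPase were mostly lower, beside 33.9% lower and 18.1% higher over all genes. Of 22 genes for translocation into the endoplasmic reticulum (ER), folding and glycosylation, 17 were lower and 3 higher (median -0.88). KAR2, the ER Hsp70, had 998, 763 and 892 CPM in monosomes and 324 and 285 CPM in disomes (-1.54, SE 0.13, adjusted p = 7.02e-06). PDI1, the protein disulfide isomerase, had 1408, 1383 and 1383 CPM against 575 and 758 CPM (-1.06, SE 0.12), and SEC61, the channel subunit, was at -0.57 (SE 0.11). SSS1, the small subunit of the same channel, went the other way with 760.5 and 702 CPM against 307, 309 and 258 CPM (1.33, SE 0.11). Vacuolar ATPase subunits were lower in 11 of 15 and higher in 1 (median -0.61). VMA10 had 673, 603 and 622 CPM against 82.9 and 88.6 CPM (-2.88, SE 0.13). The exception was VMA1 (0.61, SE 0.09), whose product holds an intein that splices itself out. Plasma membrane transporters were nearer to the shares of all genes, with 16 of 35 lower and 5 higher. Their median of -0.39 lay 0.13 below that of all genes, and with TMM scaling 9 were lower and 7 higher. PMA1, the proton pump, had 10959, 10631 and 10134 CPM against 5969 and 5906 CPM (-0.83, SE 0.08).

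**Figure D4:**
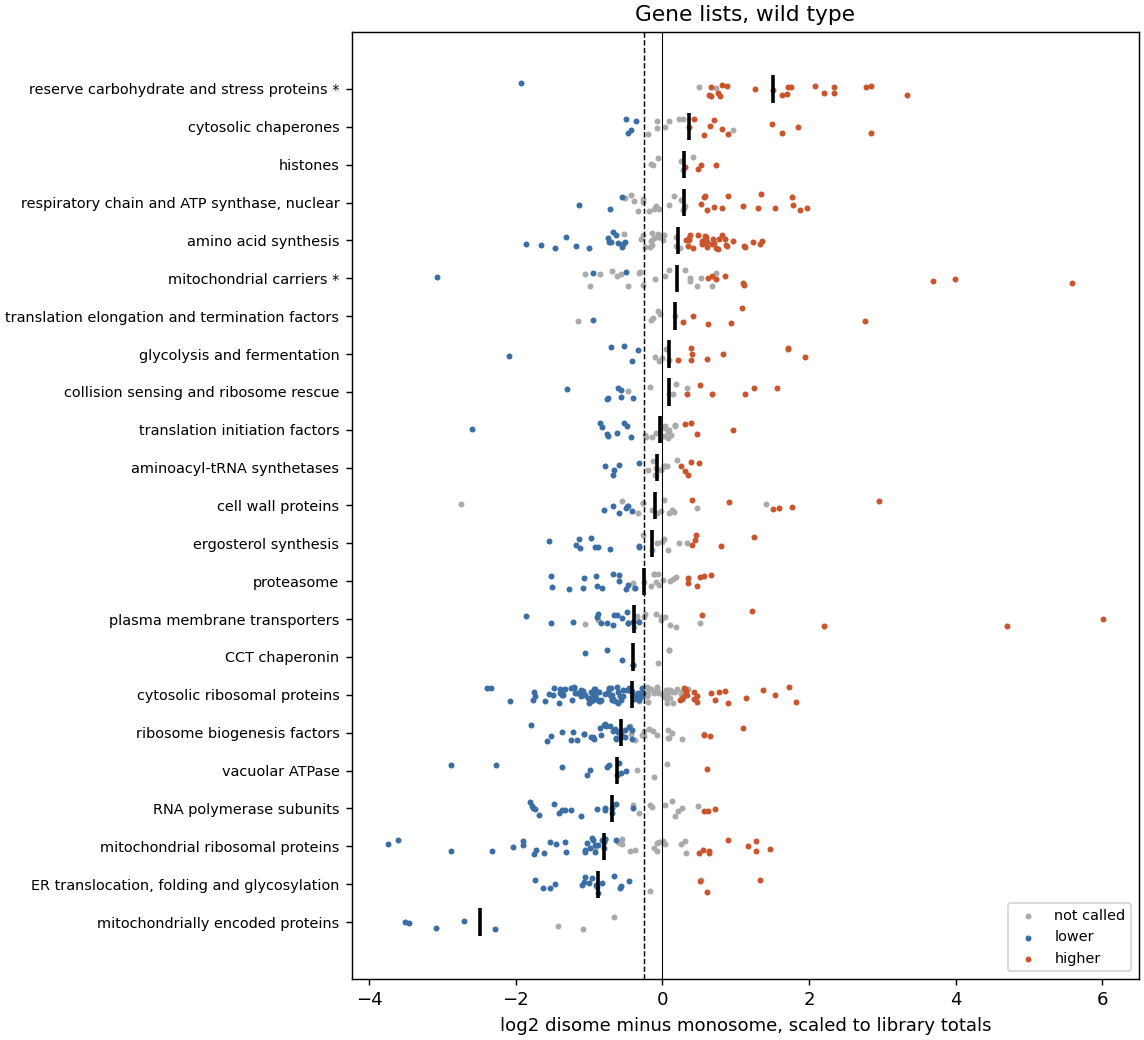
Log2 difference, disome minus monosome, of each tested gene in 23 lists in wild type; points are genes coloured by call, thick ticks are list medians, the dashed line is the median of all 5250 genes (-0.26) and an asterisk marks lists drawn up after the values were seen. The medians run from -2.49 for the mitochondrially encoded proteins to 1.51 for the stress list; DAN1, of the cell wall list, had 0 disome counts and is not drawn.

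In the lists of amino acid synthesis and of the nuclear respiratory genes more genes were higher than lower, against a background of 18.1% higher and 33.9% lower. Of 66 genes of amino acid synthesis, 32 were higher and 15 lower (median 0.21). SHM2, the cytosolic serine hydroxymethyltransferase, had 813, 878 and 1001 CPM in monosomes and 2442 and 2096 CPM in disomes (1.34, SE 0.11, adjusted p = 5.23e-06), ILV5 was at 0.60 (SE 0.08) and ARG1, of arginine synthesis, was the highest at 1.36 (SE 0.18). HIS2, of histidine synthesis, was the lowest at -1.86. Of 34 nuclear genes of the respiratory chain and ATP synthase, 15 were higher and 3 lower (median 0.29), and the count of lower genes was 6 without disome replicate 1. COX12 had 63.7, 70.2 and 45.1 CPM against 271 and 195 CPM (1.97, SE 0.19). ATP1 (0.52) and ATP2 (0.71), the catalytic core of the synthase, were higher as well. Their median length, 454.5 nt, was short, and so was that of histones (399 nt), of which 4 of 10 were higher and none lower, so that short reading frames were found on both sides. Without disome replicate 1, 1 histone gene was lower, and with TMM scaling 7 were higher. HHF1, a histone H4 gene, was the highest of them at 0.73 (SE 0.12), and its copy HHF2 was at 0.30. Reads shared by both copies were not counted, so the values of such paired histone genes are uncertain.

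Other lists were close to the median of all genes. Proteasome subunits were higher in 6 and lower in 14 of 33 (median -0.25), from RPN13, a ubiquitin receptor, at -1.52 (SE 0.17) to PRE10, a core particle subunit, at 0.67 (SE 0.11). Genes of ergosterol synthesis were higher in 5 and lower in 10 of 23 (median -0.14, and 0.07 with TMM scaling), with 3 higher without monosome replicate 2 or without disome replicate 1. ERG6, a sterol methyltransferase, had 694, 689 and 665 CPM in monosomes against 379 and 366 CPM in disomes (-0.88, SE 0.10, adjusted p = 3.79e-05). HMG1, an HMG-CoA reductase, was the lowest at -1.54 (SE 0.19) and ERG27, a keto reductase, the highest at 1.24 (SE 0.14).

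Cell wall proteins were higher in 6 and lower in 6 of 28 (median -0.10, and 0.11 with TMM scaling), beside 18.1% and 33.9% of all genes. The higher ones included the Pir family, which is bound to the wall glucan. HSP150 of that family had 2445, 2769 and 3149 CPM in monosomes and 6343 and 9503 CPM in disomes (1.51, SE 0.16, adjusted p = 4.98e-05), PIR1 had 695, 825 and 1076 CPM against 2429 and 3473 CPM (1.77, SE 0.19), and PIR3 was at 2.96 (SE 0.37). These genes carry internal repeats. CCW12, the most abundant member, was at -0.14 (SE 0.14, adjusted p = 0.443). Mitochondrial carriers, a list drawn up after MME1 and MTM1 had been seen, were higher in 9 and lower in 3 of 32 (median 0.20), and in 14 and 2 with TMM scaling. The ADP/ATP carrier PET9 (0.63, SE 0.14) and the phosphate carrier MIR1 (0.67, SE 0.14) were higher, and SAL1, another ADP/ATP transporter, was the lowest with 14.4, 11.9 and 11.3 CPM against 1.18 and 1.77 CPM (-3.08, SE 0.45).

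The 8 proteins encoded in mitochondrial DNA, which are made by mitochondrial ribosomes, had low levels in both library types and lower ones in disomes. Their summed level was 98.3 CPM in monosomes and 18 CPM in disomes, 5 of 8 were lower and none higher, and the median was -2.49. OLI1, an ATP synthase subunit, had 29.9, 41.0 and 20.2 CPM in monosomes against 2.35 and 4.72 CPM in disomes (-3.09, SE 0.50, adjusted p = 3.85e-04). These values rest on 0 to 8 disome counts for OLI1, ATP6, COX2 and COX3. Monosome replicate 3 was the lowest monosome library for each of these genes. Without disome replicate 1 no member was called and without disome replicate 2 only 3 were.

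Factors of translation had called genes in both directions. Of 13 elongation and termination factors 6 were higher and 1 lower (median 0.17), and 2 were lower without monosome replicate 2. TEF1 and TEF2, identical copies of the factor that brings aminoacyl-tRNA to the ribosome, were at 0.94 (SE 0.11) and 1.08 (SE 0.11). Their values depend on the reads that tell them apart and are uncertain. HEF3, a paralog of the elongation factor YEF3, was the highest at 2.76 (SE 0.37) on 22 to 25 monosome and 16 and 28 disome counts. Initiation factors were higher in 4 and lower in 9 of 26 (median -0.03), shares near the 18.1% and 33.9% of all genes. With TMM scaling 7 were higher and 7 lower, and the median turned to 0.18. TIF11, or eIF1A, was the lowest, with 718, 651 and 584 CPM against 129 and 87.4 CPM (-2.59, SE 0.17). Without monosome replicate 1 or without monosome replicate 2, 2 initiation factors were higher. Aminoacyl-tRNA synthetases were higher in 5 and lower in 5 of 21 (median -0.07, and 0.13 with TMM scaling), with 2 higher without monosome replicate 1 or 2 and 3 higher without disome replicate 1.

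Of 19 genes that sense and resolve collisions, 6 were higher and 7 lower (median 0.09), the latter a share near the 33.9% of all genes. With TMM scaling 9 were higher and 4 lower. Without monosome replicate 2, monosome replicate 3 or disome replicate 2 the count of lower genes was 4. SMY2, a relative of the collision factor SYH1, had 80.2, 87.0 and 98.0 CPM in monosomes and 234 and 289 CPM in disomes (1.56, SE 0.14, adjusted p = 6.88e-06). SLH1, the helicase that splits the leading ribosome, had 37.3, 31.8 and 34.9 CPM against 87.0 and 78.5 CPM (1.25, SE 0.15), and GCN2, the kinase of the integrated stress response, had 32, 24.5 and 31.4 CPM against 80.5 and 47.8 CPM (1.13, SE 0.22). HEL2 itself had 70.2, 77.8 and 91.2 CPM in monosomes and 68.8 and 39.6 CPM in disomes (-0.56, SE 0.21, adjusted p = 0.047). Its upper disome value lay just under the lowest monosome value. The call of HEL2 was near the threshold of 0.05, and its value under the alternative scalings was not looked at. MAG2 was the lowest with 27.6, 31.1 and 28.2 CPM against 13.5 and 10.04 CPM (-1.30, SE 0.23). GCN1, which carries the collision signal to Gcn2, was at 0.19 (SE 0.09, adjusted p = 0.112), and MBF1, a frameshift suppressor, at 0.14 (SE 0.10, adjusted p = 0.259). With TMM scaling both were called higher, GCN1 at 0.40 (adjusted p = 0.00879) and MBF1 at 0.35 (adjusted p = 0.0255), and with DESeq2 as well.

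Reading frames known from earlier work to hold a stalling sequence did not share a direction, with 1 higher and 1 lower among the 4. Without disome replicate 1, 2 were lower, and without disome replicate 2, 2 were higher. HAC1, whose unspliced mRNA is held back in translation, had 15.7, 14.2 and 15.1 CPM in monosomes and 28.8 and 53.7 CPM in disomes (1.46, SE 0.24, adjusted p = 4.25e-04). SDD1 had 6, 6 and 12 counts in monosomes and 6 and 2 in disomes (1.88, SE 0.82, adjusted p = 0.0717, and 0.89 without disome replicate 1). RQC1, a part of the quality control complex, had 59.0, 56.1 and 59.95 CPM against 61.7 and 41.9 CPM (-0.17, SE 0.17). JJJ1, a J-domain protein, had 20.5, 20.3 and 24.2 CPM against 5.29 and 2.95 CPM (-2.39, SE 0.33, adjusted p = 1.19e-04). Of 3 genes with a programmed frameshift, singled out after the values were seen, only OAZ1 was higher, and without disome replicate 2 the other two were lower. It encodes the ornithine decarboxylase antizyme, whose synthesis is known to be paused by its own nascent chain when polyamines are low. Its levels were 8.38, 7.69 and 7.80 CPM in monosomes and 55.8 and 42.5 CPM in disomes (2.63, SE 0.20, adjusted p = 2.89e-06). ABP140 was lower (-0.52, SE 0.11) and EST3 was at -0.35 (SE 0.44).

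The same difference was then computed in the other strains, whose libraries had no part in the wild-type fit. The counts of HEL2 ranged from 67 to 1251 over the wild-type libraries and reached at most 6 in hel2 and ncs2elp6hel2. Those of ELP6 ranged from 5 to 277 and reached at most 3 where it was deleted. Those of NCS2 ranged from 14 to 274 and reached at most 26 where it was deleted. In 1 fit over 18 libraries, Spearman's rho with the wild-type values over 5250 genes was 0.73 in hel2, 0.67 in ncs2elp6 and 0.64 in ncs2elp6hel2, as a description. Of the 951 genes higher in wild type, 778, 797 and 738 had a positive difference in these strains, and of the 1781 lower ones, 1729, 1598 and 1656 had a negative one. Over all 5250 genes the difference was positive in 27.6%, 39.3% and 33.3% and negative in 72.4%, 60.7% and 66.7%, with medians of -0.45, -0.22 and -0.33. All 12 genes with the largest excess and all 12 with the largest deficit kept their sign in the 3 strains. MME1 was at 5.59 in wild type and at 5.60, 5.86 and 5.85 in hel2, ncs2elp6 and ncs2elp6hel2, and YOR302W at 5.51, 4.54, 5.84 and 4.30. BEM2 was at 3.87, 2.97, 3.24 and 2.82. HSP42 was at 2.84, 1.56, 1.49 and 0.11, and TPO4 at 3.60, 1.72, 2.47 and 0.61. In ncs2elp6hel2 neither HSP42 (adjusted p = 0.687, edgeR) nor TPO4 (adjusted p = 0.055) was called different from 0. By the interaction test of edgeR, 492 genes (9.37%) differed from wild type in hel2, 1048 (20%) in ncs2elp6 and 912 (17.4%) in ncs2elp6hel2. These 3 tests share the wild-type libraries. The stress list, drawn up after the values were seen, lay 1.77 above the median of all genes in wild type. It lay 0.91, 1.07 and 0.43 above it in the other strains. Other lists varied. Relative to the same median, the vacuolar ATPase was at -0.36 in wild type and at -0.40, -0.28 and -0.44 in the others. Nuclear respiratory genes were at 0.55 against 0.06, 0.63 and -0.08, and histones at 0.55 against 0.49, -0.03 and -0.19.

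**Figure D5:**
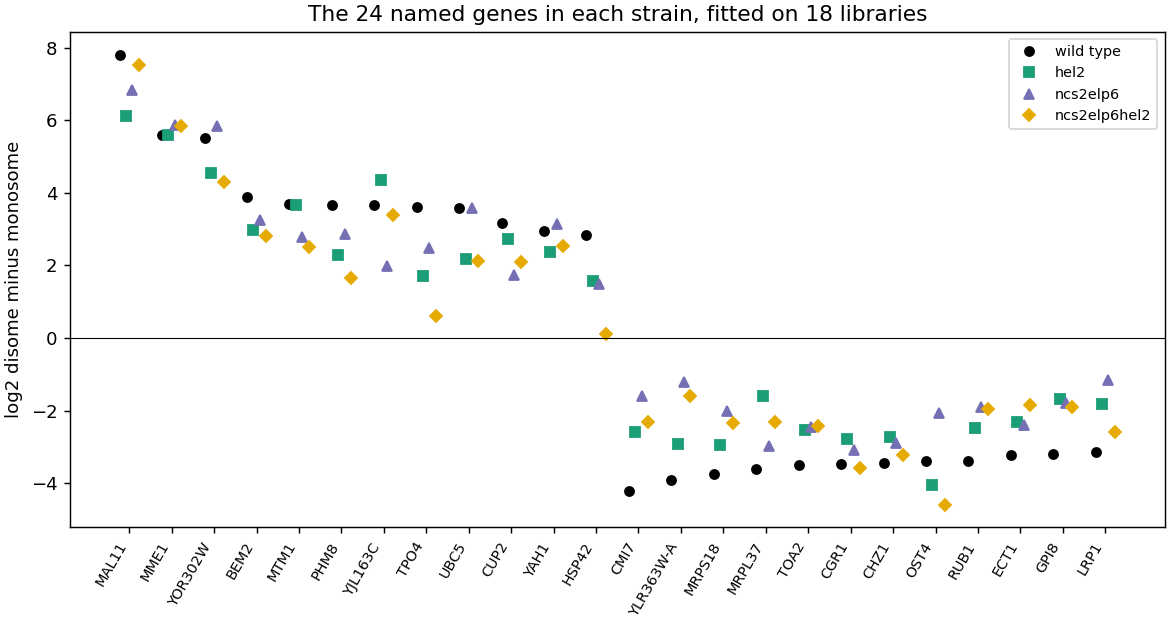
Log2 difference, disome minus monosome, of the 24 genes named for their wild-type values in wild type, hel2, ncs2elp6 and ncs2elp6hel2, fitted on 18 libraries. Points of 1 gene lie on the same side of 0 in all 4 strains, with HSP42 at 0.11 and TPO4 at 0.61 in ncs2elp6hel2 nearest to 0.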

How the data were processed

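Monosome and disome fractions of RNase I digests were sequenced. Counts deposited by the authors give, for each open reading frame extended by 21 nt at both ends, its uniquely mapped sense reads with up to 1 mismatch. Gel fractions of 28 to 32 nt and, for disomes, reads of 56 to 64 nt were used. Since only unique reads were counted, the values of any gene with a close copy are uncertain, also where this is not repeated. The submitters' processing notes name FastQC 0.11.7, STAR 2.5.3a, Bowtie 1.2.3 and the build sacCer3. Symbols and gene lengths came from the RefSeq table of assembly R64, which matched 5534 of 5693 genes.

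Counts were scaled to library totals and tested between library types with edgeR 4.0.16 (quasi-likelihood, robust, filterByExpr) in R 4.3.3. TMM and DESeq2 scaling, depth, length, filters, a replicate block and leaving out each library were the alternatives. P-values were adjusted by Benjamini-Hochberg over all 5250 genes, with calls under 0.05. SE is that of the log2 difference. DESeq2 1.42.0 and limma 3.58.1 served as alternatives, and the edgeR step was tested on simulated data. The simulation changed few genes, evenly in both directions, so it does not check calls in data where 52% of genes differed. Intervals cover counting error only, since removal of PCR duplicates was not stated.

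Named were the 12 called genes with the largest difference per direction (at least 20 CPM, no overlap between types), the 5 highest in disomes, the 4 most abundant members per list, and SDD1, HAC1, RQC1 and JJJ1. Names outside this rule (list extremes, CPA1, UBC4, HXT5, HXT7, SUL1, HXK1, TDH1, HHF2, PIR1, PIR3, MIR1, stress genes, SMY2, SLH1, GCN2, MAG2, OAZ1, ABP140, EST3) were chosen after their values were seen. The comparison, the members and the lists were chosen with earlier results of these data known. Sequences and positions on genes were not analysed here.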

Additional observations from a re-analysis of the deposited data

Results flagged for a closer look

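Among the 24 genes with the largest differences in wild type, the interaction test of edgeR gave an adjusted p under 0.05 for 32 differences between another strain and wild type. The genes were chosen by their wild-type extremes, each strain was set against the same wild-type libraries, and all 32 differences were towards 0. In hel2 minus wild type the log2 values were 2.02 for MRPL37, 1.49 for GPI8, 1.32 for LRP1, -1.40 for UBC5, -1.28 for HSP42, -1.38 for PHM8, -0.90 for BEM2 and -1.89 for TPO4. In ncs2elp6 minus wild type they were 1.41 for GPI8, 1.5 for RUB1, 2.63 for CMI7, 1.99 for LRP1, 2.70 for YLR363W-A, 1.72 for MRPS18, -1.35 for HSP42, -0.80 for PHM8, -0.63 for BEM2, -0.90 for MTM1, -1.43 for CUP2, -1.70 for YJL163C and -1.14 for TPO4. In ncs2elp6hel2 minus wild type they were 1.45 for RUB1, 1.89 for CMI7, 1.40 for ECT1, 2.32 for YLR363W-A, 1.39 for MRPS18, -1.45 for UBC5, -2.73 for HSP42, -2.03 for PHM8, -1.05 for BEM2, -1.19 for MTM1 and -3.0 for TPO4.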

How the results depend on the processing

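The numbers of genes called, higher and lower stayed within 1.5 times their values under all alternatives run, and no gene called in both fits changed direction. Leaving out 1 library at a time gave between 2309 and 2587 called genes. The deviations of same-numbered libraries (replicate 1 minus 2) had a correlation of 2.80e-04 between library types. That value leaves out monosome replicate 3 and other pairings, so it cannot tell which libraries share a lysate. With the replicate block 2424 genes were called, 870 higher and 1554 lower. Thinning the monosome libraries to disome depth gave 2443, an offset for the number of positions a footprint can take 2694, and a floor of 50 counts 2616. A fit of limma voom with weights per library type, chosen after seeing the data, gave 2149. With DESeq2, PDC1 turned from -0.00 to 0.25 and HXT3 from -0.02 to 0.23, both then called. Of the values of named genes under the alternatives, 43 lost the call and 35 gained it, and the 24 genes with the largest differences lost it in none. Leaving out the genes of A and B pairs, also chosen afterwards, moved the ribosomal protein median from -0.16 to 0.05 relative to all genes. The check on shared 29-nt windows was not run, since no genome was used here. The disome libraries held fewer reads than the monosome libraries, and disome values of the lowest genes rest on few counts.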
